A study of Mus musculus with 2 samples.

Results

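The Ly6 genes encode small proteins with a cysteine-rich fold that are held on the outer cell surface by a lipid (GPI) anchor, and immunologists use them to tell lymphoid and myeloid cells apart. A set of 5 was followed here by symbol in the deposited gene list, which holds 31053 genes: Ly6a, Ly6c1, Ly6c2, Ly6d and Ly6e. All 5 were detected. They were measured in single cells of the mediastinal lymph node, which drains the lung, from WT mice of strain C57/B6J with allergic asthma. There were 2 libraries (10x Genomics, 3′ kit), 1 from mice without butyrate and 1 from mice with butyrate, a short-chain fatty acid made by gut bacteria, and each was a pool of 4 mice.

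Both groups carried the same disease model. Mice were sensitised with 50 µg of ovalbumin (OVA) in alum on days 0 and 7, received 50 µg of OVA through the nose on days 14 to 16, and the nodes were taken on day 17. The mice of the study were 5 to 13 weeks old, and the ages and the route of butyrate for these libraries are not given in the sources used here. No library from mice without OVA was analysed here, so butyrate was compared within allergic mice only. After filtering, 8774 cells without and 8013 cells with butyrate remained, with a median of 5075 and 5649 unique molecular identifiers (UMIs, each marking 1 captured RNA molecule) per cell. Since each condition has 1 library, no difference between conditions could be set against the spread between mice, no p-value is given, and every interval covers counting error only. There were 25 cell barcodes shared by the libraries, and leaving those cells out moved no ratio beyond its counting interval.

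Ly6A is the antigen also called Sca-1, a marker of blood stem cells that T cells raise when they are activated or exposed to interferon. Ly6C1 and Ly6C2 are a pair of closely related proteins that antibodies to Ly6C do not separate. Ly6C marks monocytes, plasmacytoid dendritic cells, plasma cells and memory CD8+ T cells. Ly6D is known from B cell progenitors and B cells, and also marks plasmacytoid dendritic cells, and Ly6E is a broadly expressed interferon-response gene.

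The 5 genes lie in 1 cluster on chromosome 15, in a span of 349915 bases (GRCm38, GENCODE M21). In order along the chromosome these are Ly6d (ENSMUSG00000034634, chr15:74762056-74763620, minus strand), Ly6e (ENSMUSG00000022587, chr15:74955051-74959905, plus strand), Ly6a (ENSMUSG00000075602, chr15:74994877-74998031, minus strand), Ly6c1 (ENSMUSG00000079018, chr15:75044018-75048830, minus strand) and Ly6c2 (ENSMUSG00000022584, chr15:75108158-75111970, minus strand). All 5 are annotated as protein-coding. A 3′ kit reads the end of each transcript, so the likeness of those ends decides how well the genes can be told apart. Over the last 500 bases of the longest protein-coding transcripts, Ly6c1 and Ly6c2 were identical at 484 of 493 aligned bases (98.2%). Of the 411 windows of 90 bases in that stretch of Ly6c1, 35 (8.52%) occurred without a mismatch in a Ly6c2 transcript. A read from such a window cannot be given to 1 of the 2 genes, so the split of the pair carries that limit. Ly6a matched Ly6c1 at 87.9% and Ly6c2 at 87.2% of aligned bases and shared no window of 90 bases with either. It shared 3 of 451 windows of 50 bases with Ly6c2. The other pairs matched at 55.2% to 64.7%.

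The start regions of this near-identical pair differ more than the transcripts do, and they are shown because the pair parted by cell type in the levels that follow. RefSeq (GRCm38.p6) gave start regions for 2 of the 5 members, in 4 windows, and the first listed window of each gene was used. The 250 bases before each start are printed 5′ to 3′ on the strand of the gene, chr15:75048838-75049087 (minus) for Ly6c1 and chr15:75111972-75112221 (minus) for Ly6c2. Capitals mark matches to the motifs that were searched.
Ly6c1: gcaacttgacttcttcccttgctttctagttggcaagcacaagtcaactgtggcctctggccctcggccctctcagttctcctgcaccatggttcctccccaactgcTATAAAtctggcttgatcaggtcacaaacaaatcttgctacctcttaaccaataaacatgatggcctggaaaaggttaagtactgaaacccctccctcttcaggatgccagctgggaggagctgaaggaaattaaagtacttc
Ly6c2: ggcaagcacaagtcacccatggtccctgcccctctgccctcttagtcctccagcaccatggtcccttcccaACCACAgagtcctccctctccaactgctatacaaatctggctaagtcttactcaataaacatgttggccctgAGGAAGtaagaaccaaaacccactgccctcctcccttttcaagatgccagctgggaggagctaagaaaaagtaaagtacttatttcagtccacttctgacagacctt
Aligned to each other, the 2 windows were identical at 164 of 216 aligned bases (75.9%). Both strands were searched for TATAAA, a RUNX core (TGTGGT), an ETS core (AGGAAG), a T-box core (AGGTGT), the interferon-gamma site TTCNNNGAA and the core of the interferon-stimulated response element (GAAA, then any 2 bases, then GAAA). Ly6c1 held TATAAA 143 to 138 bases before the start, as do 12.4% of 32851 windows of this length. Ly6c2 held the RUNX core on the opposite strand (printed ACCACA) 179 to 174 bases before the start and the ETS core 107 to 102 bases before it, which occur in 14% and 29.5% of windows. The T-box core, the interferon-gamma site and the response element, found in 11.8%, 7.02% and 2.98% of windows, had no match in either window. No 2 matches overlapped, and a match of such short letters is a description of the window, not of a bound factor.

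Cells were assigned to classes by UMIs of lineage genes. B cells held at least 4 UMIs of Cd79a, a part of the B cell receptor, and none of Cd3e, and numbered 4032 without and 3822 with butyrate. T cells held at least 1 UMI of Cd3e, a part of the T cell receptor complex, and numbered 3861 and 3527. Among T cells, Cd4, Cd8a and Foxp3 separated 954 and 853 conventional CD4+, 1608 and 1653 CD8+ and 185 and 162 regulatory T cells. A further 1031 and 788 T cells met neither these rules nor that of the γδ class. The smaller classes were γδ T cells (83 and 71), plasma cells (37 and 11), Lyz2+ myeloid cells (35 and 29), NK cells (18 and 28) and plasmacytoid dendritic cells (8 and 12), and 783 and 584 cells remained unassigned. In B, T and regulatory T cells, genes that the rules did not use followed the names. The B cell gene Cd79b stood at 1720 and 1855 CPM (UMIs of the gene per 1000000 UMIs of the class) in B cells against 22.7 and 24.0 in T cells, and the T cell gene Cd3d at 962 and 951 CPM in T cells against 8.20 and 10.2 in B cells. Ikzf2, a gene of regulatory T cells, stood at 689 and 586 CPM in that class and at 70.2 and 47.2 in conventional CD4+ T cells. The γδ class, named by Trdc, was not checked by a second gene of γδ T cells. The T cell receptor beta gene Trbc2 stood there at 1258 and 1229 CPM, against 1700 and 1651 CPM in all T cells.

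Each class held a trace of the genes of others, as free RNA in the droplets can give, and this trace set a floor for reading the Ly6 levels. In CD8+ T cells, the B cell genes Cd79b and Ms4a1 stood at 0.31% to 1.62% of their level in B cells. In B cells, the T cell genes Cd3d, Cd3g and Trbc2 stood at 0.55% to 1.07% of their level in T cells. Ly6d in CD8+ T cells (0.37% and 0.53% of its level in B cells) lay within that range and is read as background. So is Ly6c1 in B cells (0.54% and 0.91% of its level in T cells), within or below its range. The cells were uneven: in 1 of the interferon ranges that follow, 1 CD8+ cell held 23.1% of 78 Ly6d UMIs with butyrate. The source of the trace was not tested.

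Ly6d marked B cells and plasmacytoid dendritic cells. In B cells it stood at 1791 CPM without and 1794 CPM with butyrate, and in conventional CD4+ T cells at 8.57 and 9.44 CPM. With each cell thinned to 2000 UMIs, so that depth was equal, 89.6% and 89.3% of B cells held a UMI of Ly6d, against 1.68% and 1.57% of CD8+ T cells. Cycling B cells, with 2 or more UMIs of Mki67 and Top2a, held less than the other B cells, at 869 CPM against 1858 CPM without butyrate and 755 against 1822 CPM with butyrate. The counting interval of this fold, 2.14 and 2.41, did not reach 1 in either library. Plasma cells held 1130 and 865 CPM. The plasmacytoid dendritic cells, named by Siglech and high in Bst2 (3816 and 5433 CPM), held 3816 and 4523 CPM, which was 2.13 and 2.52 times the level in B cells, from 8 and 12 cells that all held at least 1 UMI.

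Ly6e was present in every class compared. Its level was highest in plasmacytoid dendritic cells, at 2644 CPM without and 2884 CPM with butyrate, followed by B cells at 1531 and 1600 CPM. Regulatory T cells (1092 and 1156 CPM) and γδ T cells (1070 and 1041 CPM) were highest among T cells, and their counting intervals overlapped. Plasma cells held 745 and 1047 CPM. Conventional CD4+ T cells held 859 and 787 CPM and CD8+ T cells 645 and 583 CPM. B cells thus held 1.99 and 2.29 times the level of all T cells. Cycling B cells were again below the other B cells, at 891 against 1577 CPM without and 1108 against 1613 CPM with butyrate.

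Ly6a ran from few to many molecules within the T cell lineage. Regulatory T cells held 552 CPM without and 269 CPM with butyrate, B cells 430 and 356 CPM, conventional CD4+ T cells 374 and 230 CPM, γδ T cells 268 and 215 CPM and CD8+ T cells 110 and 49.4 CPM. The order of these classes changed between the libraries: regulatory T cells led without butyrate and B cells led with butyrate, where regulatory T cells held 1.17 times the level of conventional CD4+ T cells (log2 fold 0.23, 95% interval 0.058 to 0.40). CD8+ T cells were lowest of the 5 in both, and conventional CD4+ T cells held 3.39 and 4.65 times their level. Plasma cells (2341 and 906 CPM) and plasmacytoid dendritic cells (2170 and 1674 CPM) held far more.

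**Figure D1:**
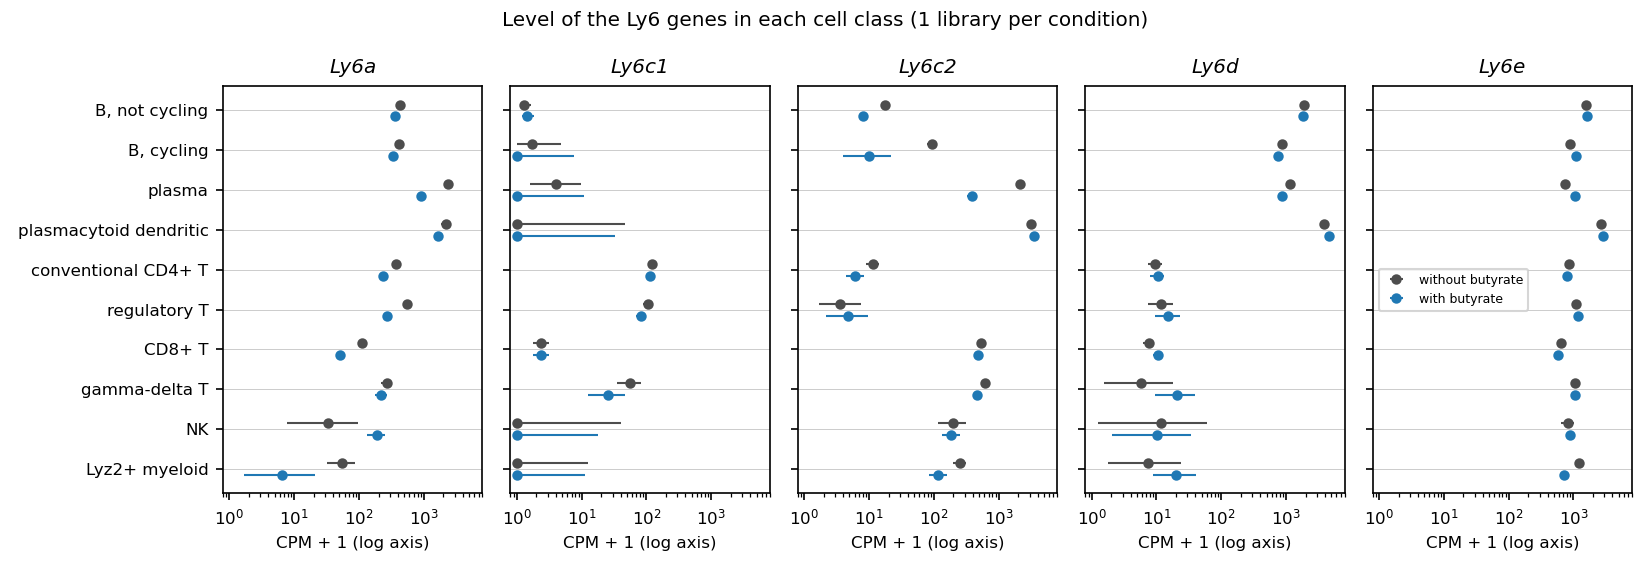
Level of each Ly6 gene (CPM plus 1, log axis) in 10 cell classes of the library without butyrate (grey) and with butyrate (blue). Points are sums over the cells of a class and bars are exact Poisson 95% intervals for counting error only. Ly6c1 was at 123 and 111 CPM in conventional CD4+ T cells and at 1.34 and 1.35 CPM in CD8+ T cells, Ly6c2 had the opposite order, and Ly6d ranged from 755 to 4523 CPM in the B, plasma and plasmacytoid dendritic classes and from 4.70 to 19.5 CPM in the other classes plotted.

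The near-identical pair Ly6c1 and Ly6c2 parted by T cell lineage. Ly6c1 stood at 123 CPM without and 111 CPM with butyrate in conventional CD4+ T cells, at 104 and 81.7 CPM in regulatory T cells, and at 1.34 and 1.35 CPM in CD8+ T cells. Ly6c2 stood at 533 and 472 CPM in CD8+ T cells and 614 and 469 CPM in γδ T cells, and at 10.4 and 5.07 CPM in conventional CD4+ T cells. The CD4+ level of Ly6c1 was thus 91.7 and 82.7 times the CD8+ level, and the CD8+ level of Ly6c2 was 51.4 and 93.1 times the CD4+ level. The residual levels were near that of a trace gene on average. Ly6c2 in conventional CD4+ T cells was 1.94% and 1.07% of its CD8+ level. There Cd8b1, a CD8 chain that was not used to set the classes, was at 1.67% and 2.12%. The cells were uneven, however. In 1 of the interferon ranges that follow, a single conventional CD4+ cell held 34.5% of 29 Ly6c2 UMIs without butyrate. In another, 1 cell held 59.1% of 22 with butyrate. Whether the residual is free RNA was not tested.

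The split also held within single cells. Among T cells with at least 3 UMIs of the pair, 927 without and 913 with butyrate, 199 and 163 held only Ly6c1, 697 and 734 held only Ly6c2, and 31 and 16 held both. In CD8+ T cells 587 of 595 and 635 of 638 such cells held Ly6c2 alone, and in conventional CD4+ T cells 85 of 99 and 82 of 88 held Ly6c1 alone. Regulatory T cells resembled the conventional CD4+ cells, with Ly6c1 alone in 25 of 25 and 17 of 18. The 1031 and 788 T cells left outside the conventional CD4+, CD8+, regulatory and γδ classes included both kinds. Of those with at least 3 UMIs of the pair, 85 and 62 held Ly6c1 alone, 85 and 72 Ly6c2 alone and 10 and 7 both. These T cells supplied 35.7% and 33.3% of all Ly6c1 UMIs, against 37.0% and 44.9% from conventional CD4+ T cells.

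Within CD8+ T cells, Ly6c2 was higher in memory-like cells. Cells were ranged by the summed UMIs of 4 genes of memory and effector CD8+ T cells, Il2rb, Cxcr3, Eomes and Ccl5: 0 UMIs (naive-like, 780 and 701 cells), 1 to 2 (480 and 509 cells) and 3 or more (memory-like, 348 and 443 cells). Ly6c2 stood at 237, 453 and 1005 CPM along these ranges without butyrate, and at 164, 352 and 894 CPM with butyrate. Memory-like cells thus held 4.24 times the naive-like level without butyrate (log2 fold 2.08, 95% interval 1.99 to 2.18) and 5.45 times with butyrate (2.45, interval 2.34 to 2.56). The ranges sort by depth too, with a median of 9155 and 10243 UMIs in memory-like against 6128 and 6974 in naive-like cells, so detection was compared at 2000 UMIs per cell. There, 74.4% (95% interval 69.5% to 78.9%) and 68.6% (64.1% to 72.9%) of memory-like cells held a UMI of Ly6c2, against 22.0% (19.1% to 25.0%) and 16.1% (13.5% to 19.1%) of naive-like cells. Ly6a differed less along the same ranges, at 119 CPM in memory-like against 102 in naive-like cells without butyrate and 58.4 against 47.0 with butyrate.

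Within conventional CD4+ T cells, Ly6c1 was lower and Ly6a higher in memory-like cells. The CD4+ ranges used 6 genes of activated and memory cells, Cd44, Icos, Cxcr3, S100a4, Maf and Tnfrsf4. Such ranges can sort by depth as in CD8+ T cells, and shares of cells at equal depth are not given for them. Ly6c1 stood at 150 CPM in naive-like, 142 in middle and 15.1 in memory-like cells without butyrate, and at 140, 122 and 13 CPM with butyrate. The naive-like level was 9.88 and 10.8 times the memory-like level, the latter resting on 16 and 14 UMIs. Ly6a stood at 298 CPM in naive-like and 673 CPM in memory-like cells without butyrate and at 168 and 443 CPM with butyrate, a fold of 2.26 and 2.64. Memory-like CD4+ cells also carried more interferon-response RNA (defined with the interferon ranges that follow): 58.0% of them against 35% of naive-like cells without butyrate, and 34.3% against 10.8% with butyrate, held 5 or more such UMIs. Over the 4 interferon ranges, memory-like cells held Ly6a at 512, 467, 588 and 1037 CPM against 193, 246, 369 and 625 CPM in naive-like cells without butyrate. With butyrate they stood at 369, 272, 528 and 757 CPM against 142, 171, 281 and 397 CPM, from as few as 9 cells in a range. In the memory-like ranges 1 cell held 14.6% to 38.5% of the Ly6a UMIs without and 12.0% to 31.3% with butyrate. The part of interferon-response RNA in the Ly6a difference was not tested.

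Regulatory T cells, divided by the same CD4+ list after their levels had been seen, showed the same order of naive-like and memory-like cells. Ly6c1 stood at 382 CPM in 38 naive-like cells against 32.2 CPM in 100 memory-like cells without butyrate, and at 239 CPM in 48 cells against 35.0 CPM in 75 cells with butyrate. Ly6a stood at 363 against 632 CPM without butyrate and at 200 against 308 CPM with butyrate. The middle range held less Ly6a than either, at 280 CPM in 47 cells without and 157 CPM in 39 cells with butyrate. Its intervals overlapped the naive-like ones, so Ly6a did not rise step by step. Ly6c1 in the middle range stood at 276 and 124 CPM. Depth was not made equal between these ranges either.

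**Figure D2:**
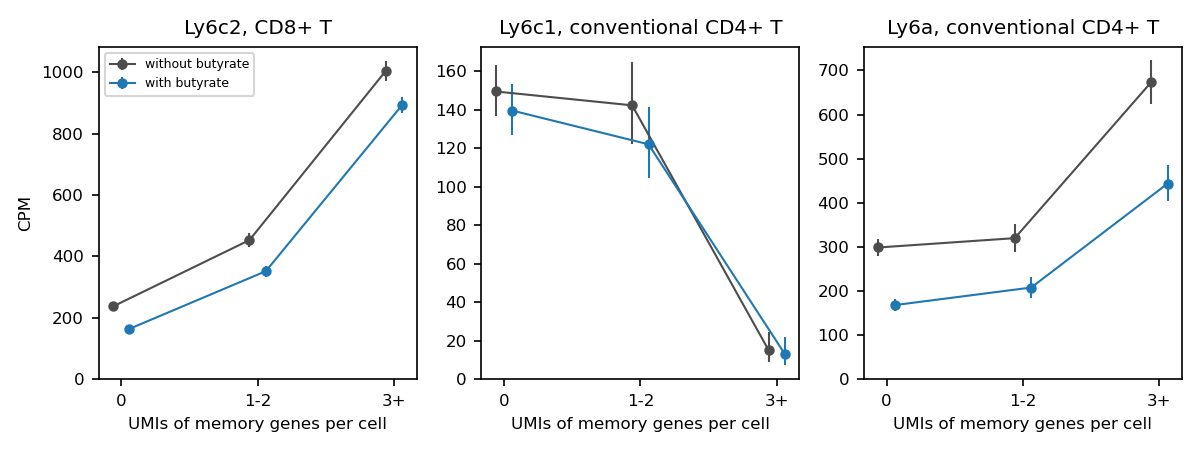
Level (CPM) of Ly6c2 in CD8+ T cells and of Ly6c1 and Ly6a in conventional CD4+ T cells, over ranges of the summed UMIs of memory genes per cell (4 genes for CD8+, 6 for CD4+). Points are sums over cells, bars exact Poisson 95% intervals for counting error only, grey without and blue with butyrate. Ly6c2 ran from 237 to 1005 CPM without and from 164 to 894 CPM with butyrate, while Ly6c1 stood at 15.1 and 13 CPM in memory-like cells.

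The libraries were then compared gene by gene, as the log2 ratio of CPM with over without butyrate, with 10 CPM added to each level so that low genes do not give extreme ratios. This understates the ratio of low genes. A gene was counted as past the fold at a log2 ratio of 0.5 or more in either direction, among genes with at least 50 UMIs. Ly6a was past it, and lower with butyrate, in all cells and in conventional CD4+, CD8+ and regulatory T cells, but not in γδ T cells (−0.31, 95% interval −0.71 to 0.092, from 114 and 88 UMIs). Over all cells Ly6a stood at 363 CPM without and 228 CPM with butyrate (−0.65, 95% interval −0.68 to −0.62), and the other 4 members lay between −0.30 and −0.022, with a median of −0.28 over the 5. With each cell thinned to 2000 UMIs the all-cell ratio of Ly6a was −0.495, just inside the fold. Without the cells of 5 or more interferon-response UMIs, those of Ly6c2 and Ly6c1 were −0.0945 and −0.0496 in place of −0.30 and −0.28. Plasma cells supplied 19.0% of all Ly6c2 UMIs without and 1.65% with butyrate, and in all T cells Ly6c2 was at −0.042 and Ly6c1 at −0.32. The part of plasma cells in the all-cell ratio of Ly6c2 was not tested. Of the 12138 genes compared in all cells, 0.395% were lower and 0.0824% higher past the fold, with a median ratio of 0.011. These shares include genes too low to pass the fold with 10 CPM added.

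Among B cells and conventional CD4+, CD8+ and regulatory T cells, the Ly6a ratio was closest to 0 in B cells, and CD8+ and regulatory T cells were level with each other. In B cells, 430 CPM against 356 CPM gave −0.26 (95% interval −0.31 to −0.22), inside the fold. In all T cells, 238 against 124 CPM gave −0.89 (−0.94 to −0.83). In conventional CD4+ T cells, 374 against 230 CPM gave −0.68 (−0.78 to −0.58), and in CD8+ T cells 110 against 49.4 CPM gave −1.02 (−1.14 to −0.91). In regulatory T cells, 552 against 269 CPM gave −1.01 (−1.18 to −0.84), from 870 and 366 UMIs of which 1 cell held 9.66% and 13.4%. The share of cells with a UMI at 2000 UMIs per cell moved the same way: 45.7% without and 39.5% with butyrate in B cells, 38.0% and 26.8% in conventional CD4+, 15.6% and 8.29% in CD8+ and 42.4% and 33.3% in regulatory T cells, the last with overlapping intervals (35.2% to 49.9% and 26.1% to 41.2%).

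The remaining members were inside the fold in conventional CD4+, CD8+, regulatory and γδ T cells where they had at least 50 UMIs, though 2 of these values passed it under other settings. Ly6c1 in conventional CD4+ T cells was at −0.13 (95% interval −0.27 to 0.018), and in regulatory T cells at −0.32 (−0.64 to 0.0051), or −0.64 after thinning to 2000 UMIs per cell. Ly6c2 in conventional CD4+ T cells, at a trace level, was at −0.43 from 58 and 29 UMIs. It was between −0.90 and −0.54 with a pseudocount of 1, without doublet removal, after thinning or without the top cell. The same range held with ribosomal, mitochondrial and immunoglobulin genes left out of the scaling. Ly6c2 in CD8+ T cells was at −0.17 (−0.22 to −0.12). Its 3 memory ranges lay at −0.51 (naive-like), −0.36 (middle) and −0.17 (memory-like), the first 2 below and the third level with the class as a whole, while memory-like cells made up 348 of 1608 CD8+ cells without and 443 of 1653 with butyrate. Ly6d in B cells was at 0.0023 (−0.018 to 0.023). Both parts of that class were lower with butyrate, cycling B cells at −0.20 (−0.36 to −0.042) and the others at −0.028 (−0.049 to −0.0071). Cycling cells, which held less Ly6d, numbered 85 without and 40 with butyrate. Ly6e was at 0.063 (0.041 to 0.085) in B cells, −0.13 (−0.18 to −0.067) in conventional CD4+, −0.14 (−0.19 to −0.099) in CD8+ and 0.082 (−0.017 to 0.18) in regulatory T cells.

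Against all genes of the same class, the members past the fold were 1 of 4 in B cells (Ly6c2, −0.88), 1 of 5 in all T cells, 1 of 5 in conventional CD4+, 1 of 4 in CD8+ and 1 of 3 in regulatory T cells (Ly6a in each T cell class), all lower with butyrate. The background of lower genes was 0.526% of 10259 genes in B cells, 0.376% of 10646 in T cells, 0.851% of 8578 in conventional CD4+, 0.347% of 9502 in CD8+ and 2.83% of 5694 in regulatory T cells. With 10 CPM added, a gene of few CPM cannot pass the fold in the lower direction, and such genes hold these shares down. A member at a higher level is thus not set against genes equally free to pass. The larger counts at a pseudocount of 1 are given with the alternatives. No member was higher past the fold in these classes, where the background of higher genes was 0.039%, 0.103%, 0.291%, 0.0526% and 2.44%. Regulatory T cells had the fewest UMIs, and genes spread past the fold in both directions there.

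**Figure D3:**
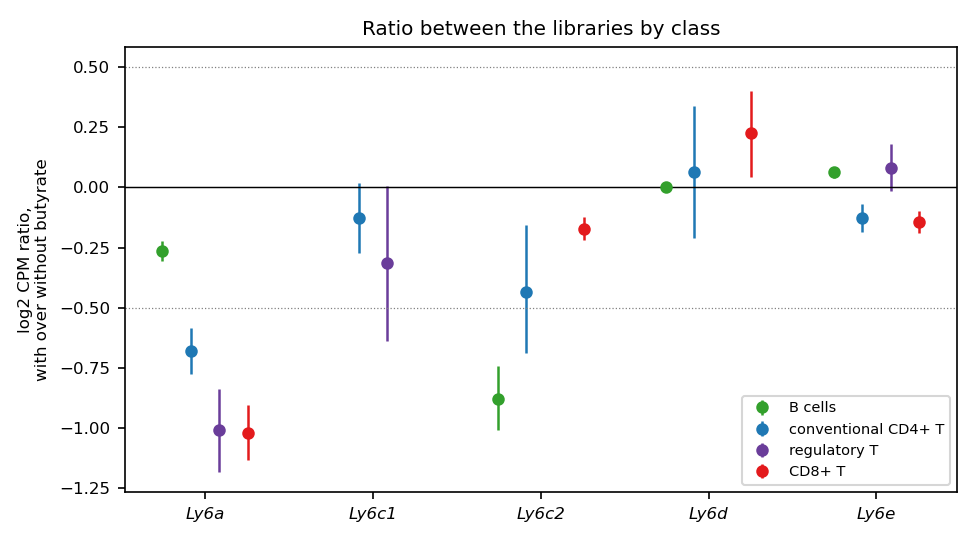
Log2 ratio of CPM with over without butyrate (10 CPM added) of each Ly6 gene in B cells, conventional CD4+, regulatory and CD8+ T cells, for pairs with at least 50 UMIs over both libraries. Bars are exact 95% intervals for counting error only and dotted lines mark 0.5 in either direction. Ly6a lay between −0.26 in B cells and −1.02 in CD8+ T cells, Ly6d in B cells at 0.0023, and Ly6e between −0.14 and 0.082.

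The low Ly6c2 level of B cells rested on few cells. It was 21.7 CPM without and 7.25 CPM with butyrate, from 461 and 151 UMIs in 173 and 106 cells. A single cycling B cell without butyrate held 123 of these UMIs (26.7%), and leaving out the top cell of each library gave a ratio of −0.62 in place of −0.88. The ratio was inside the fold after thinning to 2000 UMIs per cell (−0.488) and without the cells of 5 or more interferon-response UMIs (−0.321), so its place past the fold rests on the setting. In cycling B cells that cell held 91.1% of the 135 UMIs without butyrate, against 5 UMIs in all with butyrate. The B cell level was 7.24% and 2.49% of the T cell level, above the 0.55% to 1.07% of the T cell genes. That floor is not a like comparison, since plasma cells also supplied Ly6c2 (19.0% of its UMIs without and 1.65% with butyrate). Of the 13 and 6 B cells with 5 or more Ly6c2 UMIs, 2 and 0 held 5 or more UMIs of Jchain, a gene used to name plasma cells.

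Because Ly6a and Ly6e are known interferon-response genes, they were followed beside 17 others (Isg15, Ifit1, Ifit2, Ifit3, Mx1, Oasl2, Irf7, Usp18, Rsad2, Rtp4, Bst2, Ifi27l2a, Zbp1, Xaf1, Isg20, Ifi44 and Cmpk2). All 17 had at least 50 UMIs in all cells and all 17 were below 0, with a median ratio of −0.67 against 0.011 over all genes, and 13 were past the fold. Isg15, a ubiquitin-like protein, stood at 111 CPM without and 46.3 CPM with butyrate (−1.10), and Irf7, a transcription factor of the interferon response, at 63.6 and 31.8 CPM (−0.82). In B cells the median was −0.46, with 6 of 16 genes past the fold, in conventional CD4+ T cells −0.83 with 14 of 16, in CD8+ T cells −0.66 with 10 of 17 and in regulatory T cells −0.71 with 9 of 11, where the medians over all genes lay between 0.0017 and 0.019. This list is known from earlier results of these data to differ between the libraries, so its direction is not independent evidence. Ly6a was thus below the list's median in CD8+ and regulatory T cells, and above it in B cells and conventional CD4+ T cells, while Ly6e was above it in all 4 classes. The added 10 CPM draws low list genes toward 0, such as Ifi44 and Mx1 in CD8+ T cells (3.84 and 7.43 CPM without butyrate). The place of a member against the median thus depends on level too. The highest list genes there, Ifi27l2a, Bst2, Isg15 and Zbp1, were at −1.08, −0.74, −1.10 and −0.50.

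Cells were then sorted by their own interferon UMIs, summed over the 17 genes after thinning to 2000 UMIs. Cells with 5 or more made up 17.2% of B cells without and 8.05% with butyrate, 38.7% and 15.2% of conventional CD4+, 30.4% and 10.6% of CD8+ and 57.6% and 30.2% of regulatory T cells. The cut falls within a continuous range, with 156 and 76 CD8+ cells at 4 UMIs and 110 and 50 at 5. Ly6a was higher in cells with more of these UMIs in B, conventional CD4+ and CD8+ T cells of both libraries, though intervals of neighbouring ranges overlapped between the first 2 CD4+ ranges of both libraries and between the middle 2 CD8+ ranges with butyrate. In B cells it stood at 322, 447, 688 and 835 CPM over 0 to 1, 2 to 4, 5 to 9 and 10 or more interferon UMIs without butyrate, and at 304, 406, 631 and 992 CPM with butyrate. In conventional CD4+ T cells it stood at 243, 274, 406 and 755 CPM without and at 166, 194, 362 and 709 CPM with butyrate. In CD8+ T cells it stood at 64.5, 99.5, 140 and 254 CPM without and at 37.9, 54.9, 76.9 and 160 CPM with butyrate.

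Compared within equal ranges, the Ly6a ratio lay between −0.14 and 0.25 in B cells and between −0.79 and −0.63 in CD8+ T cells. B cells had ratios of −0.081, −0.14, −0.12 and 0.25 over the 4 ranges, lower with butyrate in the first 3 and higher in the last, with no interval that included 0. The third interval ran from −0.24 to −0.0046, and 1 cell held 10.0% of the Ly6a UMIs of that range without butyrate, against 3.21% with butyrate. Conventional CD4+ T cells had −0.53, −0.48, −0.16 and −0.090, with intervals that included 0 at 5 or more UMIs. CD8+ T cells as a whole had −0.64 (95% interval −0.84 to −0.44), −0.76 (−0.96 to −0.55), −0.79 (−1.12 to −0.46) and −0.63 (−1.01 to −0.27), past the fold in each range. In the last, 1 cell held 16.2% of the 68 UMIs with butyrate. With another random draw of the thinning the CD8+ ratios were −0.67, −0.64, −0.63 and −1.03, and those at 5 to 9 UMIs became −0.23 in B cells and −0.24 in conventional CD4+ T cells. By memory range, not all CD8+ values were past the fold. Naive-like cells had −0.43, −0.87, −0.45 (interval −0.93 to 0.018) and −2.01, the last from 5 UMIs with butyrate. Memory-like cells had −0.61, −0.70, −0.79 and −0.20 (interval −0.73 to 0.32). Regulatory T cells had −1.28, −1.36, 0.45 and −0.32, from as few as 23 and 15 cells in a range and with 16.2% to 39.8% of the UMIs in 1 cell, and no direction is read from them.

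Ly6e was also higher in cells with more interferon UMIs, over a smaller range. In B cells it stood at 1463, 1541, 1617 and 1985 CPM over the 4 ranges without and at 1553, 1624, 1905 and 2202 CPM with butyrate, higher with butyrate in each. In CD8+ T cells it stood at 574, 615, 679 and 937 CPM without and at 540.1, 612, 673 and 944 CPM with butyrate. The CD8+ ratios were −0.087, −0.0077, −0.012 and 0.012, and those of conventional CD4+ T cells 0.016, −0.066, 0.12 and −0.19. Among these, the intervals that did not include 0 were those of CD8+ cells with 0 to 1 interferon UMIs (−0.16 to −0.015) and of conventional CD4+ cells with 10 or more (−0.37 to −0.019).

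Ly6d in B cells stood at 1715, 1831, 1932 and 2003 CPM over the ranges without butyrate and at 1732, 1906, 2104 and 1841 CPM with butyrate, and its ratios lay between −0.12 and 0.12. Ly6c2 in CD8+ T cells stood at 469, 533, 538 and 739 CPM without and at 439, 502, 472 and 845 CPM with butyrate. Its ratios over the ranges, −0.095, −0.087, −0.19 and 0.19, did not share a sign. The ratios of Ly6c1 in conventional CD4+ T cells were −0.10, −0.20, 0.48 and −1.57, and did not share a sign either. The intervals at 5 to 9 interferon UMIs (0.10 to 0.85) and at 10 or more (−2.25 to −0.91) did not include 0. At 10 or more, Ly6c1 had 131 UMIs without and 15 with butyrate, 60% of the latter in 1 cell. No direction is read from these Ly6c1 ratios.

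**Figure D4:**
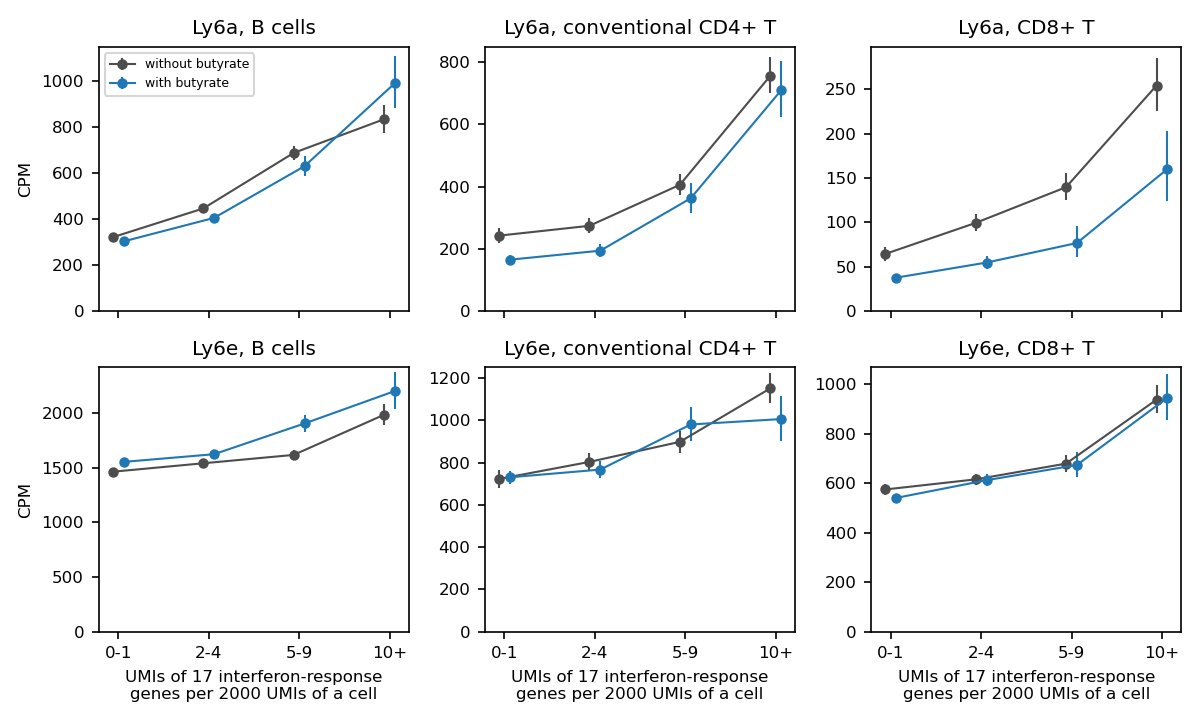
Level (CPM) of Ly6a (top) and Ly6e (bottom) in B cells, conventional CD4+ and CD8+ T cells, over ranges of the summed UMIs of 17 interferon-response genes per cell after thinning to 2000 UMIs. Points are sums over cells, bars exact Poisson 95% intervals for counting error only, grey without and blue with butyrate. Ly6a was higher at 10 or more UMIs than at 0 to 1 in every panel, and in CD8+ T cells the library with butyrate stayed below the other in each range (37.9 against 64.5 CPM at the lowest and 160 against 254 CPM at the highest).

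Plasma cells, named by Jchain with Sdc1 or Tnfrsf17, were few and uneven. The 37 cells without butyrate held 2348 UMIs of Ly6a and 2109 of Ly6c2, with medians of 34 and 28 UMIs per cell. The 11 cells with butyrate held 339 and 146 UMIs, with medians of 11 and 1, and 1 cell held 31.6% and 43.8% of them. Ly6c2 stood at 2103 CPM without and 390 CPM with butyrate (ratio −2.40) and Ly6a at 2341 and 906 CPM (−1.36). Other genes of this class differed between the libraries too. The B cell genes Ms4a1 and Cd79b stood at 67.8 and 412 CPM without and at 427 and 678 CPM with butyrate, and Bst2, of the interferon list, at 661 and 214 CPM. The part of these in the Ly6 levels was not tested. The isotypes of the cells differed as well. Among cells whose leading heavy chain gene was of the IgG type, 23 of 25 without and 2 of 5 with butyrate held Ly6c2, at 2163 and 60.3 CPM. Among those led by Ighm, 10 of 10 and 3 of 4 held it, at 1452 and 971 CPM. Plasma cells supplied 12.3% of all Ly6a UMIs and 19.0% of all Ly6c2 UMIs without butyrate against 2.84% and 1.65% with butyrate, so the ratios over all cells include this class.

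In the other rare classes the levels rest on few cells. Plasmacytoid dendritic cells held Ly6c2 at 3117 CPM without and 3511 CPM with butyrate, with a UMI in 8 of 8 and 12 of 12 cells, and no UMI of Ly6c1, which allows up to 37.4 and 25.8 CPM (3 counts of each total). NK cells held Ly6c2 at 194 and 186 CPM in 2 of 18 and 5 of 28 cells, and Ly6a in 2 and 7 cells (3 and 41 UMIs, 25 of the latter in 1 cell). Lyz2+ myeloid cells held Ly6c2 in 14 of 35 and 6 of 29 cells. Those with Ccr2, a receptor of monocytes, held 486 and 303 CPM from 9 and 6 cells, and those with C1q genes, made by macrophages, 157 and 8.71 CPM from 19 and 17 cells, the latter value resting on 2 UMIs.

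The wider family and other anchored proteins were compared in the same way. Of 39 other genes of the Ly6 and uPAR family, 35 were in the files and 6 had at least 50 UMIs, and none of these passed the fold in all cells. With 10 CPM added, Ly6i, Ly6g5b and Lypd6b (0.93, 0.59 and 3.48 CPM without butyrate) could not pass it lower even if absent with butyrate. Ly6k was at 0.26, Plaur, the receptor of urokinase, at 0.074, Lypd6b at 0.033, Ly6g5b at 0.029, Lynx1 at 0.028 and Ly6i at −0.085. The Ly6i value came from 49 UMIs without and 16 with butyrate, so the added 10 CPM hides most of that difference. It also shrinks the rise of Ly6k, from 5.67 CPM (298 UMIs) without to 8.83 CPM (461 UMIs) with butyrate. In B cells Ly6k stood at 4.71 and 9.42 CPM, a ratio of 0.40 with the added 10 CPM. Of 12 genes for lymphocyte surface proteins with a GPI anchor, all 12 were compared and 1 passed the fold, Bst2 at −0.63, which is also on the interferon list. Bst1 and Prnp (0.72 and 2.43 CPM without butyrate) were likewise too low to pass it in the lower direction. Thy1, the T cell antigen, was at 0.25 and Cd52 at −0.0040, and the median of the 12 was 0.0010 against 0.011 over all genes.

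Over the 12 classes that held 20 cells or more in each of the libraries, taken in both (24 points), the genes whose levels were most like each member were ranked by Pearson's r of log2(CPM + 10) among 8660 genes. Plasma cells (37 and 11), plasmacytoid dendritic cells (8 and 12) and NK cells (18 and 28) fell below 20 cells in a library and were left out. The levels of Ly6a and Ly6c2 in plasma and plasmacytoid dendritic cells, up to 2341 and 3511 CPM, thus do not enter these values. Points of the same library share its depth, and the classes were set by marker genes, so these are descriptions. Ly6d was closest to Cd79a (r = 0.99), which defined the B cells, with Chst3, Iglc2, Rasgrp3 and Fcmr (each 0.99). Ly6c2 was closest to Jaml (0.93), Runx3 (0.89), Atp8b4 (0.85), Klrd1 (0.85) and Adgrg5 (0.84), Runx3 being a transcription factor and Klrd1 a receptor chain of CD8+ T and NK cells. Ly6c1 was closest to Trat1 (0.91), a T cell adaptor, Gm13546 (0.89), Rcan3 (0.84), Ldhb (0.83) and Ndrg3 (0.82). Ly6a was closest to Stag1 (0.89), St8sia4 (0.87), Ppp1r16b, Polr2a and Srrm1 (each 0.86 or 0.85), and Ly6e to Slc4a7 (0.89), Camk2d (0.88), Tgif1 (0.87), Zfp36l1 (0.87) and Arhgap25 (0.86). Between members, r was 0.60 for Ly6a with Ly6e and −0.43 for Ly6c1 with Ly6c2.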

How the data were processed

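The authors made the data with Cell Ranger 6.0.1, per the labels with the mm10 build, and deposited raw UMI counts per gene and cell for 31053 genes, without normalization. The 2 libraries held 9681 cells without and 8932 cells with butyrate, with 59176459 and 58381292 UMIs. Each pools 4 mice, and the labels gave the groups. The annotation behind the counts is not given in the sources used here.

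Cells were kept at 10% or less of mitochondrial UMIs and at 200 genes or more, which removed 186 and 327. Doublets were then taken as the top Scrublet scores (scanpy 1.11.5), assuming a rate of 0.8% for every 1000 cells captured (721 and 592 cells). Classes were set by UMIs of single marker genes, not by clustering, and a cell that met several rules took the first of plasma, plasmacytoid dendritic, myeloid, NK, B and T. UMIs of a gene were summed over the cells of a class and divided by all UMIs of those cells to give CPM, with exact Poisson intervals. Ratios between libraries are log2 ratios of CPM + 10, with exact conditional binomial (Clopper-Pearson) intervals on the same scale, and folds between classes of a library have no added value. Shares of cells have exact binomial intervals at 95%, after thinning each cell to 2000 UMIs by random draw, which left out 101 and 57 cells. A count of 0 allows up to 3 counts. Genes with at least 50 UMIs over both libraries were compared in a class. With 1 library per condition no test was made. The code for ratios was also tested on simulated Poisson counts. Only genes with at least 2000 UMIs were checked there, and uneven cells were not simulated.

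The named genes are the 5 members, those of the family, interferon-response and GPI lists, and the 5 genes most like each member over classes with at least 20 cells, among genes with at least 500 UMIs. A gene of the interferon list and a B cell marker are not reported here and enter no list sum or share. The members, lists and marker rules were chosen with earlier results of these data known. Positions and transcripts came from GENCODE M21, and start regions from RefSeq GRCm38.p6. Alternatives were no doublet removal, at most 5% mitochondrial UMIs, at least 500 genes, other lineage rules, thinning and a pseudocount of 1. Further ones were at least 200 UMIs or at least 1, other scalings, cells without high interferon UMIs and another seed. The other lineage rules allowed no UMI of Cd79a or Lyz2 in T cells and none of Lyz2 in B cells. They asked only 1 UMI of Cd79a of B cells, so they were not a stricter rule for that class. Versions were Python 3.11.15, numpy 2.4.6, scipy 1.17.1, pandas 2.3.3, Biopython 1.88 and matplotlib 3.10.9.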

Additional observations from a re-analysis of the deposited data

Results flagged for a closer look

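Ly6e had ratios of opposite sign in B cells and in the larger T cell classes. It was higher with butyrate in B cells (log2 ratio 0.063) and lower in conventional CD4+ T cells (−0.13) and CD8+ T cells (−0.14). Regulatory T cells stood at 0.082 with an interval that included 0. Within the B class, cycling cells (85 and 40) were at 0.31 (0.17 to 0.45). The other B cells were at 0.032 (0.010 to 0.055), nearer 0 than the class as a whole. The difference between the lineages was not tested, since each condition has 1 library. Under the alternatives run the B cell ratio lay between 0.031 and 0.072, the conventional CD4+ ratio between −0.14 and −0.0384 and the CD8+ ratio between −0.15 and −0.0785. Within equal ranges of interferon UMIs, the B cell ratio was above 0 in each, the CD8+ ratios were −0.087, −0.0077, −0.012 and 0.012, and the conventional CD4+ ratios were 0.016, −0.066, 0.12 and −0.19. Apart from that of cycling B cells, all of these ratios are small beside the fold of 0.5.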

How the results depend on the processing

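Of 373 alternative values for 75 results, 296 stayed within the counting interval of the value reported, or within 1.5 times for counts of genes, 75 moved outside it and 2 changed sign against a reported interval that left out 0. A further 10, counted among the 296 and the 75, crossed 0 where the reported interval already included it, Ly6d in B cells among them. The 2 whose reported interval left out 0 were the all-cell ratios of Ly6d (0.043) and Ly6e (0.0025) with each cell thinned to 2000 UMIs. Thinning also moved Ly6a to −0.90 in CD8+ and −0.79 in regulatory T cells and Ly6c1 in conventional CD4+ T cells to −0.32. Without cells of 5 or more interferon UMIs, Ly6a was at −0.17 in B cells, −0.53 in conventional CD4+, −0.80 in CD8+ and −1.36 in regulatory T cells, and Ly6e at −0.0384 in conventional CD4+ and −0.0785 in CD8+ T cells. A pseudocount of 1 gave Ly6a in CD8+ T cells −1.15. The other lineage rules, which allowed no UMI of Cd79a or Lyz2 in T cells, gave Ly6a in regulatory T cells −0.79. Scaling without ribosomal, mitochondrial and immunoglobulin genes gave Ly6d in B cells −0.026 and Ly6e 0.035, and median-of-ratios scaling −0.030 and 0.031. Ly6a stayed below 0 in B, conventional CD4+, CD8+ and regulatory T cells under every alternative run.

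Genes past the fold at a pseudocount of 1 numbered 236 lower and 65 higher in B cells (54 and 4 with 10), 266 and 207 in conventional CD4+ (73 and 25) and 171 and 114 in CD8+ T cells (33 and 5), and at least 200 UMIs left 47 lower in conventional CD4+ T cells. Leaving out each member's top cell, cells of shared barcodes, and the division of regulatory T cells were chosen after seeing the data. No paired analysis was possible because each condition has 1 library, and for that reason no replicate could be left out. Differences between mice cannot be told apart from the effect of butyrate.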
